A study of Mus musculus with 4 samples.

Results

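The 10 genes described here, Wt1, Msln, Upk3b, Upk1b, Lrrn4, Gpm6a, Bnc1, Pdpn, Muc16 and Rspo1, are genes by which mesothelial cells are commonly recognised. Every probe set whose only gene symbol in the platform annotation was 1 of these 10 was taken, which gave 15 probe sets of the 45037 on the array that are not controls. The rule goes by gene symbol, and the genes were chosen with earlier results of these data known. Expression was read on 4 arrays of mesothelial and submesothelial cells cut surgically from fetal mouse liver, strain C57BL/6, embryonic day 17.5. There were 2 arrays from embryos labelled Kip2 -/-, written p57-/-, which lack the cell cycle inhibitor p57, and 2 from wild-type embryos, written p57+/+. The sample titles place 1 array of each genotype in experiment 1 and 1 in experiment 2. How the mutant allele was made, and how many embryos a sample held, is not given in the sources used here, so the p-values cover the spread between these samples, part of which may be technical.

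Mesothelium is the epithelial sheet that covers the liver and lines the body cavity. In the embryo it expresses the transcription factor gene Wt1 and also has mesenchymal traits, and in the developing liver mesothelial cells can enter the tissue and give rise to stellate cells and fibroblasts. At its free surface the sheet carries glycoproteins such as mesothelin and the mucin that binds it, and uroplakins better known from the lining of the bladder. It also secretes factors that act on the cells beneath, R-spondin 1 among them.

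The signals were MAS5 signals, a linear brightness per probe set that the authors had scaled to 1 target on every array. Between 48.5% and 50.1% of probe sets were called Present on each array, and the lowest Present signals were 12.4 to 15.4. Cdkn1c, which encodes p57, had signals of 10255 and 9866 in p57+/+ against 7.79 and 7.28, both Absent, in p57-/-, so the labels and this gene matched on all 4 arrays. A probe set of Xist, the RNA that coats the inactive X chromosome, was at 12199 in p57+/+ experiment 1 and 86.7 in p57+/+ experiment 2, against 7889 and 6412 in p57-/-. The Y-linked Eif2s3y was at 2.56 (Absent) and 1734 in p57+/+ and at 966 and 904 in p57-/-. The p57+/+ arrays thus differed in these sex-linked genes, while both p57-/- arrays carried both transcripts.

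All 15 probe sets were called Present on all 4 arrays, so transcripts of every one of the 10 genes were detected in both genotypes. Of the uroplakins of the bladder lining, Upk1a, Upk2 and Upk3a were not called Present on any array. Of 8 neuronal and glial genes listed, 6 were on the array as a single symbol, and Stmn2 alone was tested, with summed signals of 63.5 to 90.4, although Gpm6a and Lrrn4 are also known as neuronal genes. Of further mesothelium genes, Dmkn, Tbx18 and Calb2 had no Present call.

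In p57+/+ the brightest signals were of Upk3b, which encodes uroplakin 3b, and Gpm6a, which encodes a membrane glycoprotein of the proteolipid family. Upk3b was at 2391 and 3732 in p57+/+, and Gpm6a at 2075 and 2448, taking for each gene its brightest probe set by mean log2 signal. These values overlapped, so the order of the pair was not separated by the arrays. Next came Pdpn with 687 and 981, Bnc1 with 731 and 863, Msln with 624 and 850, Upk1b with 566 and 831, and Lrrn4 with 547 and 638. Each of these 5 overlapped with its neighbour in the order. Rspo1 lay below them at 392 and 439, then Muc16 at 269 and 412, which overlapped with Rspo1. Wt1 was lowest, at 255 and 266.

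Of the 9 steps in this order, 3 had no overlap between the arrays of the neighbours, from Gpm6a to Pdpn, from Lrrn4 to Rspo1 and from Muc16 to Wt1. The highest mean was 11.8-fold above the lowest. Among all tested probe sets, 88.3% had a lower mean log2 signal than the brightest Upk3b probe set and 43.0% a lower one than that of Wt1. A probe set answers to its own transcript with its own strength, so this is an order of signals and not of RNA molecules, and signals of different genes are not corrected for length.

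**Figure D1:**
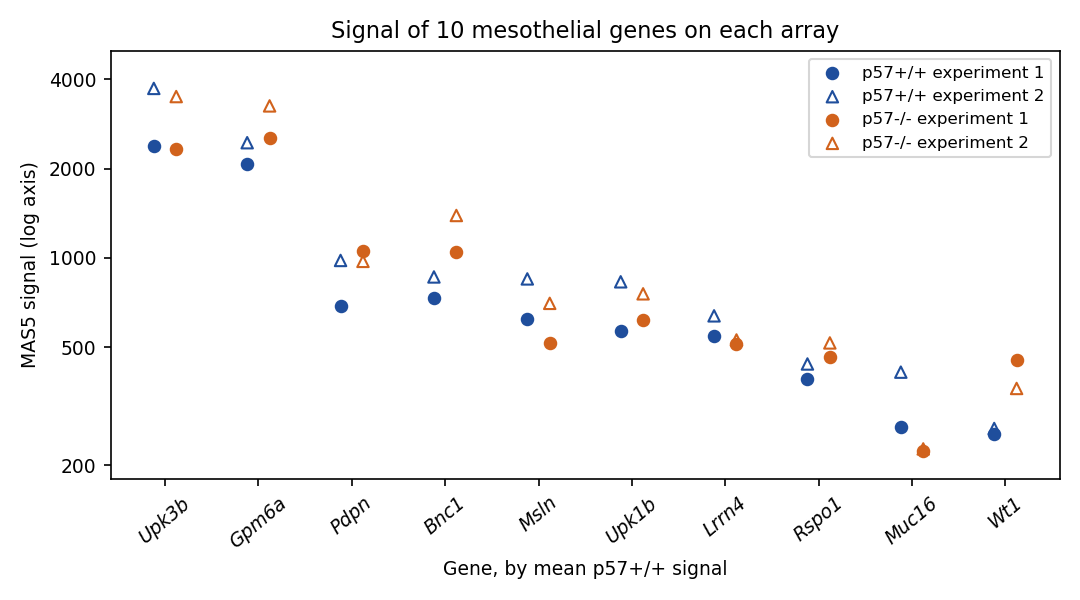
MAS5 signal (log axis) of the 10 genes on each of the 4 arrays, with the brightest probe set of each gene, ordered by the mean p57+/+ signal; points are single arrays. Upk3b and Gpm6a lie at 2075 or above on every array, and the p57-/- points of Wt1, Bnc1, Gpm6a and Rspo1 lie above both p57+/+ points.

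The promoter table of RefSeq (build GRCm38.p6) held 8 entries for 7 of the 10 genes, and Wt1, Msln and Upk1b had no entry. The 250 bases before the start are shown for Bnc1 and Gpm6a, the members with the largest differences toward p57-/- that have an entry, for Muc16, which had the largest the other way, and for Upk3b, the brightest member. They lie at chr7:81992300-81992549 on the minus strand, chr8:54779184-54779433 on the plus strand (the first of the 2 Gpm6a entries), chr9:18674604-18674853 on the minus strand and chr5:136038246-136038495 on the plus strand. Capitals mark GGAATG, the core letters bound by TEAD factors, on either strand.
Bnc1: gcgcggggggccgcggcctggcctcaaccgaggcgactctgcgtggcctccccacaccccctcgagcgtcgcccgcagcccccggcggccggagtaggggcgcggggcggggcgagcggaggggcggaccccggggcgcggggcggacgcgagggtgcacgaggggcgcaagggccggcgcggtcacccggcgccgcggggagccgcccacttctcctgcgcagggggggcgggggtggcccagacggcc
Gpm6a: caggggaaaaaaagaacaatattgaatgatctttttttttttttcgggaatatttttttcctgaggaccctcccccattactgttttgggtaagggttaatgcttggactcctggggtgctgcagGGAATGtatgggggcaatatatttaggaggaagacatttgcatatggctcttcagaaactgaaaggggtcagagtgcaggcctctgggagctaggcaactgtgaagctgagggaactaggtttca
Muc16: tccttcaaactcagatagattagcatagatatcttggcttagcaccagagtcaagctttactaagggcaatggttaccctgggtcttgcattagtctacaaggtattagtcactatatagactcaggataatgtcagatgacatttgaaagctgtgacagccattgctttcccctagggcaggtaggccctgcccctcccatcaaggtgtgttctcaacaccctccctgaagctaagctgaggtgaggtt
Upk3b: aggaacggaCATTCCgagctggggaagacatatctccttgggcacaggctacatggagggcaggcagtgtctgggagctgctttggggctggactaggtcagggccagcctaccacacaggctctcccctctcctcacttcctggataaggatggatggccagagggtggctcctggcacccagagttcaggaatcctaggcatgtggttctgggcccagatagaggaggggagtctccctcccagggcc
The Bnc1 window was 83.6% G and C, against a median of 52.4% over all 32851 windows, while Gpm6a had 44.4%, Muc16 46.4% and Upk3b 60.8%. Windows of the members therefore differed widely in base composition. Both strands were searched for GGAATG, for GCGNGGGCG, the letters shared by WT1 and EGR sites, and for TATAAA, and no matches of different motifs overlapped. GGAATG stood in 1 Gpm6a window, in the Lrrn4 window and in the Upk3b window, and in 12.6% of all windows. TATAAA stood in the other Gpm6a window and in 12.4% of all windows. GCGNGGGCG stood in none of the 8 windows and in 4.70% of all. These matches describe letters in these windows only.

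Between the genotypes, no member probe set passed the test (limma with Benjamini-Hochberg adjustment over 22800 tested probe sets, adjusted p under 0.05). The share called over all tested probe sets was 0% higher and 0.00439% lower, the latter being Cdkn1c alone. At an unadjusted limma p under 0.05 there were 3 member probe sets higher, of Wt1, Bnc1 and Gpm6a, and 1 lower, of Muc16, against 3.93% higher and 3.75% lower over all tested probe sets. The lowest adjusted p of a member was 0.549. Differences are given below as log2 p57-/- minus p57+/+, with the limma standard error. The samples are bulk tissue, in which fewer cells of a type and less RNA per cell cannot be told apart.

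With 1 probe set a gene, the arrays of the genotypes did not overlap for 4 of the 10 genes with p57-/- higher, Wt1, Bnc1, Gpm6a and Rspo1, and for 2 with p57-/- lower, Lrrn4 and Muc16. Over all 11656 tested genes these shares were 21.7% and 19.0%, so this pattern is common on these arrays. Compared within each experiment, 4 members were higher in p57-/- in both, against 29.6% of all tested genes, and 4 were lower in both, Msln, Upk3b, Lrrn4 and Muc16, against 26.7%. The remaining 2, Pdpn and Upk1b, went opposite ways in the 2 experiments. The median log2 difference of the 10 genes was 0.12, beside 0.02 over all tested genes, and it was 0.19 in experiment 1 and -0.05 in experiment 2. It ranged from -0.12 without p57+/+ replicate 1 to 0.30 without p57+/+ replicate 2, and was 0.01 without p57-/- replicate 2 and 0.24 without p57-/- replicate 1. Leaving out 1 array splits the experiments unevenly between the genotypes, so part of the step between experiments enters these values. With 0.19 in experiment 1 and -0.05 in experiment 2, the members as a group had no steady direction.

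The largest differences were in the genes of nuclear proteins. Wt1 encodes a zinc finger transcription factor of embryonic mesothelium. It was at 255 and 266 in p57+/+ and at 454 and 363 in p57-/-, in the order of experiments 1 and 2. Both p57-/- arrays were above both p57+/+ arrays, and the pair of p57+/+ values lay close together (260 ± 7.83 against 408 ± 63.9, SD, n = 2). The log2 difference was 0.64 (SE 0.21, limma adjusted p = 0.553, 95% interval 0.18 to 1.10 before adjustment), a ratio of 1.56. It was 0.83 in experiment 1 and 0.45 in experiment 2, and 0.48 to 0.80 when single arrays were left out.

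Bnc1 encodes basonuclin 1, a zinc finger protein of keratinocytes and germ cells that mesothelial cells also make. It was at 731 and 863 in p57+/+ and at 1044 and 1391 in p57-/-. The genotypes did not overlap, and both arrays of experiment 2 were above their counterparts of experiment 1. The log2 difference was 0.60 (SE 0.18, limma adjusted p = 0.549, 95% interval 0.20 to 1.01), a ratio of 1.52, with 0.52 and 0.69 in experiments 1 and 2, and 0.39 to 0.81 when single arrays were left out. For neither gene did the difference pass the adjusted threshold. The basonuclin paralog Bnc2 was at 332 and 210 in p57+/+ and at 350 and 407 in p57-/-, a log2 difference of 0.52 (SE 0.25) that lay almost wholly in experiment 2, where it was 0.96 against 0.08.

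Of the membrane proteins, Gpm6a was the member with p57-/- higher on both of its probe sets. The brighter read 2075 and 2448 in p57+/+, then 2545 and 3258 in p57-/-. The other gave 934 and 761 against 977 and 1123. On each probe set both p57-/- arrays stood above both p57+/+ arrays, by little in experiment 1 on the dimmer one (0.07). The log2 differences were 0.35 (SE 0.16) and 0.31 (SE 0.17), with limma adjusted p = 0.642 and 0.679. With single arrays left out they ranged from 0.17 to 0.53 and from 0.17 to 0.46. The probe sets of its paralog Gpm6b disagreed. The brighter had a log2 difference of 0.04 (SE 0.20), and another, Present on all 4 arrays, read 110 and 96.4 in p57+/+ against 171 and 131 in p57-/-, without overlap (log2 0.54, SE 0.30, limma adjusted p = 0.694).

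Pdpn encodes podoplanin, a mucin-type glycoprotein that lymphatic endothelium also carries and that binds the platelet receptor encoded by Clec1b. It was at 687 and 981 in p57+/+ and at 1059 and 974 in p57-/-. Only the p57+/+ array of experiment 1 was low, and the other 3 lay together. The log2 difference was 0.31 (SE 0.19, limma adjusted p = 0.719), made of 0.62 in experiment 1 and -0.01 in experiment 2, and it was 0.05 without p57+/+ replicate 1. The 4 tested lymphatic genes of 5 listed had a median of 0.08, with summed signals of 18180 and 19891 in p57+/+ and 21664 and 20491 in p57-/-. Most of these sums was Reln, a gene also on the list of stellate cells, and without it Prox1, Flt4 and Lyve1 summed to 4837 and 5177 against 5288 and 4517. The part of lymphatic cells in the Pdpn signal was not tested.

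Mesothelin and the mucin it binds had lower means in p57-/-. Msln encodes a surface protein anchored by a lipid, and Muc16 the large mucin known as CA125. Msln was at 624 and 850 in p57+/+ and at 518 and 703 in p57-/-, so the genotypes overlapped. Its log2 difference was -0.27 in each experiment (SE 0.21, limma adjusted p = 0.775, 95% interval -0.75 to 0.21). It was -0.05 without p57-/- replicate 1 or p57+/+ replicate 2, and -0.49 without either of the other arrays. Each of these fits leaves the experiments unevenly split.

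Muc16 was at 269 and 412 in p57+/+ and at 224 and 227 in p57-/-. Both p57-/- arrays were below both p57+/+ arrays, and the p57+/+ array of experiment 2 stood well above the other 3. The log2 difference was -0.56 (SE 0.25, limma adjusted p = 0.642, 95% interval -1.12 to -0.01), with -0.27 in experiment 1 and -0.86 in experiment 2. It was -0.25 without p57+/+ replicate 2 and -0.87 without p57+/+ replicate 1, so its size rests on which p57+/+ array is used. Of other mucin genes, Muc1 was not called Present on any array, and Muc4 was Present on 2, with 76.9 and 25.2 in p57+/+ against 41.2 and 70.6 in p57-/-.

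Lrrn4, which encodes a membrane protein with leucine-rich repeats, was at 547 and 638 in p57+/+ and at 513 and 529 in p57-/-. The p57-/- values were lower without overlap, by a log2 difference of -0.18 (SE 0.17, limma adjusted p = 0.818), with -0.09 and -0.27 in the 2 experiments, and -0.29 to -0.07 when single arrays were left out. Among its paralogs Lrrn1 and Lrrn2 were not called Present on any array, and Lrrn3 was at -0.46 (SE 0.29).

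The uroplakin genes differed little between the genotypes. On the brighter Upk3b probe set the p57+/+ signals were 2391 and 3732, and the p57-/- signals 2334 and 3503. Both values of experiment 1 were low and both of experiment 2 high, whatever the genotype. The log2 difference was -0.06 (SE 0.23, limma adjusted p = 0.959, 95% interval -0.59 to 0.46), and within experiments it was -0.03 and -0.09. The other Upk3b probe set gave 1172 and 1724 against 1037 and 1542, a log2 difference of -0.17 (SE 0.23), with -0.18 and -0.16. Without p57-/- replicate 1 or p57+/+ replicate 2, which leaves the experiments unevenly split, the brighter probe set turned to 0.23 and 0.26, and the dimmer to 0.12 and 0.11.

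Upk1b, which encodes a tetraspanin that pairs with uroplakin 3 proteins, had 4 probe sets with log2 differences from -0.03 to 0.08, all with limma adjusted p of 0.964 or more. Its brightest probe set read 566 and 831 in p57+/+ against 618 and 757 in p57-/-, with an interval of -0.48 to 0.47. The probe sets disagreed on the experiments rather than on the genotypes. The suffix of 1439760_x_at and 1455464_x_at marks probes that may also bind other transcripts. On 1439760_x_at experiment 2 was lower than experiment 1, with 380 and 241 in p57+/+ and 434 and 235 in p57-/-. Signals of 1435831_at and 1455464_x_at were higher in experiment 2 in both genotypes. The fourth, 1457065_at, was nearly level at 520 to 553 on all arrays.

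Rspo1, the secreted member, encodes R-spondin 1, which strengthens Wnt signalling through LGR receptors. It was at 392 and 439 in p57+/+ and at 464 and 517 in p57-/-. The p57-/- arrays were higher without overlap, and each step was small. The log2 difference was 0.24 in each experiment (SE 0.18, limma adjusted p = 0.764, 95% interval -0.17 to 0.65), and 0.16 to 0.32 when single arrays were left out. Its paralog Rspo3 was at 552 and 452 in p57+/+ and at 921 and 613 in p57-/-, a log2 difference of 0.59 (SE 0.22), and Rspo2 and Rspo4 were not called Present on any array.

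**Figure D2:**
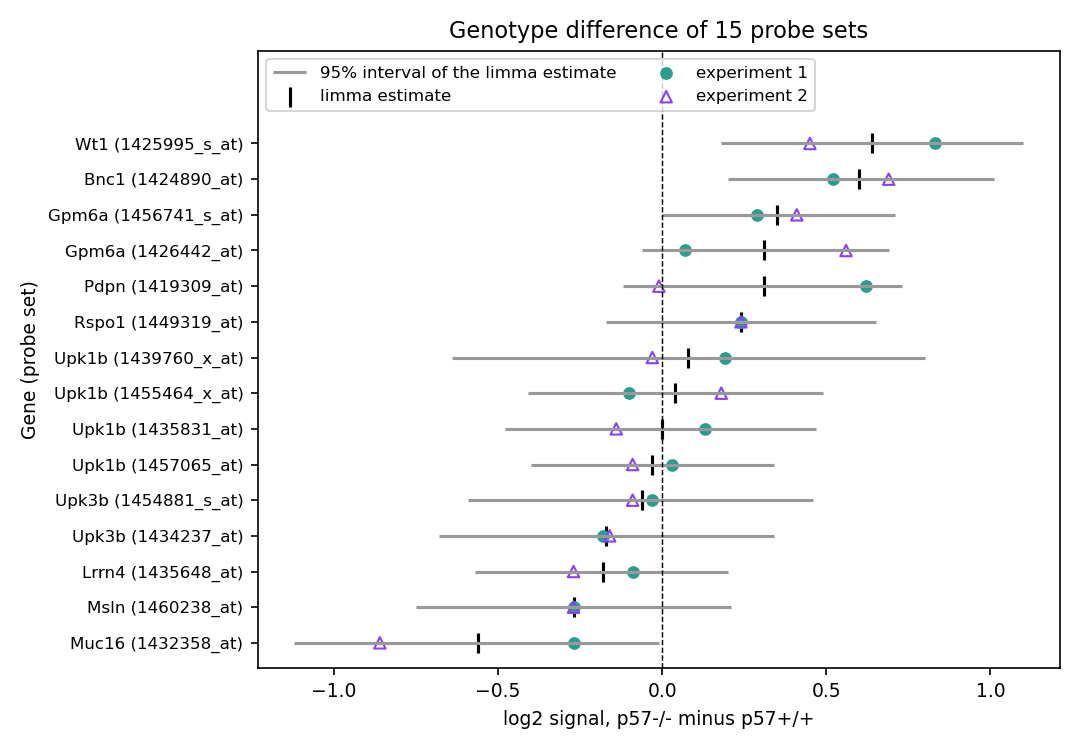
Log2 difference, p57-/- minus p57+/+, of the 15 probe sets in experiment 1 (circles) and experiment 2 (triangles), each from 1 array of each genotype, with the limma estimate (bar) and its 95% interval, not adjusted for multiple tests. Wt1 at 0.64 and Bnc1 at 0.60 lie farthest to the right and Muc16 at -0.56 farthest to the left, and the 4 Upk1b probe sets lie about 0.

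For Upk3b, Msln and Upk1b the step between experiments was wider than that between genotypes. With the brightest probe set of each gene, all 10 were higher in p57+/+ in experiment 2 than in experiment 1, with a median log2 difference of 0.34, beside 0.02 over all tested genes. The dimmer Gpm6a probe set and 1 of Upk1b went the other way there, by -0.30 and -0.66. In p57-/- the median was 0.22, beside -0.00 over all tested genes. Upk3b was higher in experiment 2 by 0.64 in p57+/+ and 0.59 in p57-/-, and Msln by 0.45 and 0.44. Wt1 and Pdpn were exceptions in p57-/-, with -0.32 and -0.12.

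The 17 tested genes of a second mesothelium list had a median of 0.23 for the same step between the p57+/+ arrays. The 3 tested bile duct genes had 0.61, blood vessel genes 0.36, hepatocyte genes 0.28 and fibroblast genes 0.15. Of the bile duct genes, Krt7 (0.61) and Krt19 (0.55) are also on the second mesothelium list, so the lists are not separate. Sox9 was at 0.96. Stellate cell genes had 0.12, macrophage genes 0.11, erythroid genes 0.09 and granulocyte genes -0.01. Of 6 skeletal muscle genes listed, Mylpf alone was tested. It was at 1222 in p57+/+ experiment 1 and 299 in p57+/+ experiment 2, against 218 and 242 in p57-/-. The p57+/+ arrays also differ in the sex-linked genes, and the labels do not give what the arrays of an experiment had in common. The part of these in the step was not tested.

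**Figure D3:**
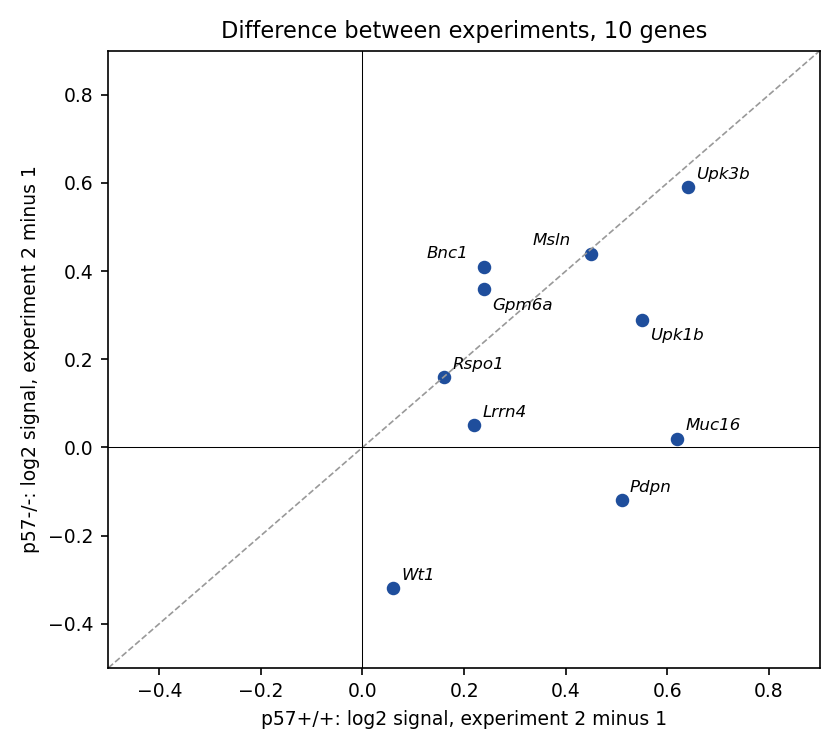
Log2 signal of experiment 2 minus experiment 1 for the 10 genes, in p57+/+ (horizontal axis) and p57-/- (vertical axis), from single arrays; the dashed line marks equal steps. All 10 genes lie to the right of 0, and Upk3b and Msln lie near the dashed line at 0.64 and 0.59 and at 0.45 and 0.44.

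Set against each other on the same array, some pairs of members differed between the genotypes the same way in both experiments. The log2 ratio of Wt1 to Upk3b was -3.23 and -3.81 in p57+/+ and -2.36 and -3.27 in p57-/-, higher in p57-/- by 0.87 in experiment 1 and 0.54 in experiment 2. That of Bnc1 to Upk3b was higher in p57-/- by 0.55 and 0.78. That of Wt1 to Muc16 was higher by 1.10 and 1.31. That of Msln to Muc16 differed by -0.00 in experiment 1 and 0.59 in experiment 2. These ratios, chosen after the values were seen and not tested, show unequal differences and not which gene changed.

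The genes nearest to Wt1 in pattern were sought among 10329 genes Present on all 4 arrays, by the distance between log2 signals centred over the arrays. The 5 nearest genes that were not members were Csf3r, Slc7a2, Rab27b, Zfp408 and Irs2, at distances of 0.0799 to 0.0995, where the median gene was at 0.718. Their log2 differences between genotypes were 0.58 to 0.63, none past the threshold with all 4 arrays. That of Slc7a2 was 0.84 without p57-/- replicate 2 and 0.41 without p57-/- replicate 1. None of these 5 genes was a mesothelium gene of the lists used here, Csf3r being the receptor gene of a granulocyte growth factor. Of the members the nearest was Pdpn at 0.485, with 1337 other genes nearer. With 4 arrays many genes share a pattern, so nearness says little about any of them.

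The second mesothelium list, of 20 genes, had 17 tested, none past the threshold in either direction, and a median log2 difference of -0.04, beside 0.02 over all tested genes. Of these, 4 were higher and 5 lower in p57-/- in both experiments, where the shares over all tested genes were 29.6% and 26.7%. Alcam, an adhesion molecule gene of embryonic mesothelium, was at 2628 and 2654 in p57+/+, against 3557 and 3386 in p57-/-, a log2 difference of 0.39 (SE 0.12, limma adjusted p = 0.549). Its other probe sets were at 0.14, 0.19, 0.37 and 1.11, and on those at 0.14 and 0.19 the genotypes overlapped. Igfbp6, which encodes a binding protein for insulin-like growth factors, was at 381 and 543 in p57+/+, against 262 and 333 in p57-/-, a log2 difference of -0.62 (SE 0.23, limma adjusted p = 0.588). Aldh1a2, the gene of a retinoic acid synthesis enzyme, split the experiments, with -0.93 in experiment 1 and 0.18 in experiment 2. The keratin gene Krt8 was at -0.32 (SE 0.18) on its brightest probe set. On the others it was at -0.41 (SE 0.20) and at -0.54 (SE 0.16), the last without overlap between the genotypes.

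**Figure D4:**
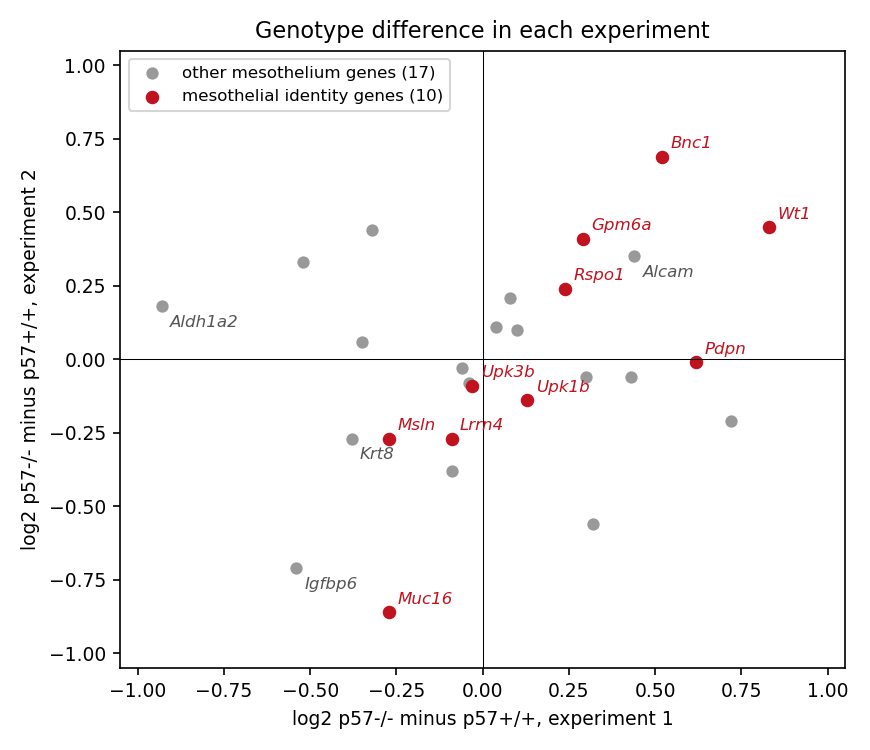
Log2 difference, p57-/- minus p57+/+, in experiment 1 (horizontal axis) and experiment 2 (vertical axis) for the 10 members (red) and the 17 tested genes of the second mesothelium list (grey), 1 probe set a gene, from single arrays. Wt1, Bnc1, Gpm6a and Rspo1 lie at the upper right with Alcam, and Muc16 in the lower left with Igfbp6.

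Lists of genes that work with the members were described the same way, and none had a gene past the threshold. Of 11 R-spondin pathway genes, 8 were tested, with a median of 0.18, and of 0.34 in experiment 1 and -0.01 in experiment 2. Lgr4, the brightest receptor gene, was at 0.17 (SE 0.14), and Rnf43, which encodes a ubiquitin ligase that R-spondins restrain, at 0.45 (SE 0.24). The 7 tested partners of podoplanin had a median of 0.13, with the tetraspanin gene Cd9 at 0.48 (SE 0.18). Cd9 was at 0.77 without p57-/- replicate 2 and at 0.19 without p57-/- replicate 1. The 9 tested partners and targets of WT1 had a median of 0.07, with 4 higher in p57-/- in both experiments and 0 lower in both. Amhr2, Present on 2 arrays, was at -0.58 (SE 0.60), Bmp4 at 0.41 (SE 0.21) and Aldh1a2 at -0.38 (SE 0.35). The 8 tested genes of the passage from epithelium to mesenchyme had a median of 0.16, with S100a4 at 0.97 (SE 0.35). Of these, 5 were higher in p57-/- in both experiments and 1, Snai2, lower in both (-0.37, SE 0.16). Over all tested genes, 29.6% were higher and 26.7% lower in both experiments.

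Markers of other cells were read on the same arrays, where 29.6% of all tested genes were higher and 26.7% lower in p57-/- in both experiments. All 6 tested erythroid genes of 7 listed were lower in p57-/- in both experiments, with a median of -0.46 and summed signals of 91662 and 97186 in p57+/+ against 63063 and 82863 in p57-/-. Among the 7 tested fibroblast genes of 8 listed, 5 were higher in both experiments, with a median of 0.25, and their sums were 65496 and 73814 against 85020 and 76641. Granulocyte genes had sums of 184393 and 186319 against 197946 and 206385, with 5 of 7 higher in both experiments and a median of 0.11. None of these genes passed the threshold with all 4 arrays. Klf1, an erythroid transcription factor gene, was at -0.60 (SE 0.18), Dcn, the decorin gene of fibroblasts, at 0.53 (SE 0.16), and Prtn3, a granulocyte protease gene, at 0.41 (SE 0.11). Without p57-/- replicate 2, Klf1 was at -0.89 and Dcn at 0.76. Without p57-/- replicate 1, Klf1 was at -0.30 and Dcn at 0.29. Each of these fits leaves 1 p57-/- array, so only differences are given. The other lists of liver cells had medians of 0.04 over 6 hepatocyte genes, 0.02 over 6 macrophage genes, 0.12 over 6 stellate cell genes, 0.12 over 3 bile duct genes and 0.16 over 5 blood vessel genes. In experiments 1 and 2 they were 0.20 and -0.14 for hepatocyte, 0.23 and -0.19 for macrophage and 0.10 and 0.10 for stellate cell genes. For bile duct genes they were 0.30 and -0.06, and for blood vessel genes 0.68 and -0.15. The hepatocyte genes had the highest sums of all lists, 275023 and 342594 in p57+/+ against 313702 and 311203 in p57-/-. Among 7 genes of gonad, kidney and adrenal, organs that also express Wt1, Lhx9 alone was tested, and Nr5a1 and Six2 had no Present call. Lhx9 was at 66.4 and 46.4 in p57+/+, both Absent, against 113 and 145 in p57-/-, both Present. The log2 difference was 1.21 (SE 0.37, limma adjusted p = 0.549). This probe set met the filter of 2 Present calls through p57-/- alone, so the split of calls is no separate evidence. Another Lhx9 probe set, Present on 1 array, read 24.6 and 33.7 in p57+/+ against 46.5 and 128 in p57-/-, without overlap. The remaining Lhx9 probe sets overlapped between the genotypes, and none was Present on more than 1 array. The part of any of these cells in the differences of the members was not tested.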

How the data were processed

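Expression was read on 4 single-colour Affymetrix arrays, 2 of each genotype. The authors deposited MAS5 signal intensity per probe set on a linear scale, with a detection p-value and a Present, Marginal or Absent call, per the file headers. The MAS5 version and settings were not given in the sources used. The 2% trimmed mean was 500.003 on every array, so the authors' scaling fixes each array's average, which hides a change in total RNA. The deposited value table held the same intensities within 0.0005%.

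Signals were log2 transformed with no pseudocount. A probe set was tested if Present on at least 2 of the 4 arrays. The genotype difference was fitted in limma 3.58.1 under R 4.3.3 (variance trend, no block, two-sided, Benjamini-Hochberg over all tested probe sets, threshold 0.05), checked on simulated data. The platform annotation gave 1 symbol to 34945 probe sets, several to 932 and none to 9160. For 1 value a gene, its brightest probe set by mean log2 signal was used. The text names all members, their paralogs, at most 3 genes of largest difference and 3 of highest signal in each further list, and the 5 genes nearest to Wt1. The members and lists were chosen with earlier results of these data known. The number of arrays limits the precision.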

Additional observations from a re-analysis of the deposited data

How the results depend on the processing

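No member probe set passed the threshold under any of the 12 alternatives run. In those that kept every array, the lowest limma adjusted p of a member lay between 0.179 and 0.776. In all 120 comparisons of a member with an alternative that kept every array, its direction held. Much of this was fixed in advance. The replicate block, the fit without variance trend, both changes of the detection filter and the deposited value table cannot move a member's difference beyond rounding. Only quantile normalization, median centring and a pseudocount could. The experiment number as a replicate block left the members' calls at 0 (lowest limma adjusted p = 0.179) and gave 30 calls over all probe sets, 10 higher and 20 lower. The numbers were not a block in the main fit, since the labels do not give what an experiment shared. Over all tested probe sets, deviations from the group means of arrays with 1 number had a correlation of 0.0046. Upk3b and Msln did step alike in both genotypes, while Wt1 and Pdpn did not. For members that step alike, the fit without a block counts that step as spread. Requiring Present calls on all 4 arrays, which removes Cdkn1c, left 0 calls in limma, with 806 higher and 767 lower at an unadjusted p under 0.05. Leaving out single arrays gave 5 to 221 calls, a median of -0.06 to 0.23 over member probe sets and of -0.12 to 0.30 over member genes. It turned the direction in 11 of 60 comparisons, all of Upk3b and Upk1b. Upk3b ranged from -0.46 to 0.12 on 1434237_at and from -0.38 to 0.26 on 1454881_s_at. Upk1b ranged from -0.28 to 0.27 on 1435831_at, from -0.36 to 0.52 on 1439760_x_at, from -0.20 to 0.28 on 1455464_x_at and from -0.07 to 0.01 on 1457065_at. Among other named genes, the brighter Gpm6b probe set ranged from -0.08 to 0.15, Aldh1a2 from -0.99 to 0.24 and Muc4 from -0.51 to 1.10. In the order of signals, 8 of 10 genes kept their place with the mean of all probe sets of a gene, and 8 with p57+/+ replicate 1 alone. With each array centred on its median, chosen for this count after seeing the data, 5 members rather than 4 were higher in both experiments. Leaving out 1 array also splits the experiments unevenly between the genotypes, so part of the step between experiments enters those differences. For other values that moved, the cause was not tested.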
